A study of Mus musculus with 346 samples.

Results

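Of 27179 genes in the files, 25139 of which were analysed, 9 genes are described here that carry or answer the signals of ovarian and pituitary hormones in the mammary gland. They were taken by name and all 9 were found by their Entrez number. There are 4 receptors (Esr1, Pgr, Prlr and Ghr), 3 target genes (Cited1, Greb1 and Stc2) and 2 paracrine mediators (Wnt4 and Tnfsf11). The data are single-cell RNA-seq profiles of cells sorted as total mammary epithelium from FVB/NJ mice, an inbred strain. Cells were depleted of CD31+, CD45+ and TER119+ cells and caught on Fluidigm C1 chips, where a microscope was used to see that a site held a single cell. The 3 groups were pre-puberty (2 weeks of age, 144 cells), puberty (4.7 to 4.9 weeks, 136 cells) and adult (10 weeks, 66 cells), all without further treatment in the labels. The series' design text gives 8 mice per stage. Another count of mice per sort is given in the study's figure legend, so the number is uncertain. No mouse is named for a cell, each stage was therefore 1 sample, and the values below are descriptions without a test between stages.

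In the mammary gland estrogen acts through estrogen receptor alpha, the product of Esr1, in a subset of luminal cells lining the ducts, and drives ductal growth at puberty. Progesterone acts through its receptor, the product of Pgr, in cells of the same kind, which then signal to their neighbors by secreted factors such as Wnt4 and Rankl, the product of Tnfsf11. Prolactin and growth hormone, both from the pituitary, bind the cytokine receptors Prlr and Ghr, which signal through the kinase Jak2 and the transcription factor Stat5.

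Reads were counted per gene, and positions are given on GRCm38.p6. Of the receptor genes, Esr1 (Entrez 13982) spans chr10:4611989-5005633, Pgr (18667) chr9:8898900-8968611, Prlr (19116) chr15:10177238-10349190 and Ghr (14600) chr15:3317755-3583352. Of the targets, Cited1 (12705) spans chrX:102247378-102252181, Greb1 (268527) chr12:16670615-16801394 and Stc2 (20856) chr11:31359441-31370061. The paracrine genes are Wnt4 (22417) at chr4:137277635-137299501 and Tnfsf11 (21943) at chr14:78277446-78308043.

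A cell was kept with at least 100000 reads and 1500 detected genes, which left 116, 119 and 44 cells at pre-puberty, puberty and adulthood, with a median of 296592, 574746 and 334631 reads. Levels are counts per 1000000 reads (CPM) of the summed reads of a stage, with an exact Poisson interval at 95%. Shares of cells were taken after each cell was thinned at random to 100000 reads, with an exact (Clopper-Pearson) binomial interval at 95%, and intervals cover counting error only. Where no cell had a read, the share that 3 cells of the total would make is given beside the exact interval. The label of the sort was checked against marker genes. The 14 pan-epithelial markers summed to 192 CPM at pre-puberty, 6826 CPM at puberty and 6442 CPM in the adult, and the median pre-pubertal cell had none of them. The 15 markers of Schwann cells, the glia of peripheral nerves, summed to 16899.5 CPM, 1408 CPM and 300.6 CPM, with a median of 12 of 15 per pre-pubertal cell. The pre-pubertal cells thus carried few of the pan-epithelial markers, most of which are also in the list of luminal markers. Basal cells are epithelial too, and the median cell had 2 of 15 basal markers at pre-puberty (quartiles 1 and 5) and at puberty (quartiles 0 and 8). The stages differ in their mix of keratin classes (given below), so the equal medians do not show that their cells are alike. Of markers of hormone-sensing luminal cells, which respond to estrogen directly, the 10 summed to 202.7 CPM, 3611 CPM and 4824 CPM, and Areg and Ly6d had no read at pre-puberty. The other lists had summed levels at the 3 stages of 2296, 4049 and 10101 CPM (15 basal markers), 186.1, 6843 and 6708 CPM (10 luminal), 221.6, 6232 and 8214 CPM (10 luminal progenitor) and 7787, 2675 and 1952 CPM (10 fibroblast). Markers of adipocytes, endothelial and immune cells summed to at most 1303, 87.1 and 49.1 CPM at any stage.

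Esr1, Pgr, Prlr, Cited1 and Stc2 were higher at puberty than at pre-puberty, and none of the 9 genes was called lower. A gene was called higher or lower where log2 of the ratio of CPM + 5 was 1 or more in size at 10 CPM or more at either stage. By this rule 5 of the 7 members that reached 10 CPM were higher at puberty, against 24% of all 9867 genes, and 0 were lower, against 21.4%. Esr1, Pgr and Stc2 reached 10 CPM only at puberty and so could not have been called lower. The members were also chosen with earlier results of these data known, so the counts are descriptions only. The median log2 ratio was 2.47 over the 9 members and 0.12 over all genes tested. These 5 calls held under each of 13 alternatives. Of these, leaving out adult cell 28, 41 or 23 cannot change a comparison without adult cells, and dropping the minimum CPM cannot lose a call. The change in marker levels between the stages runs with this difference, and its part in it was not tested.

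Prlr, the prolactin receptor, had the largest change of the 9. It stood at 31.7 CPM (interval 30.0 to 33.5) before puberty, then 2926 CPM (interval 2913 to 2939), and in adult cells 5038 CPM (interval 5006 to 5070). The log2 ratio was 6.32 from pre-puberty to puberty and 0.78 from puberty to adult. Prlr was found in 6 of 116 cells at pre-puberty, 108 of 119 at puberty and 37 of 44 in the adult. The pre-pubertal level came almost entirely from a single cell. Cell 110 held 1274 of the 1290 Prlr reads (98.8%), and 0.40 CPM were left without it, so that the log2 ratio to puberty became 8.96 when the top cell of each stage was left out. That cell also had 9 of 14 pan-epithelial and 8 of 10 luminal markers, lists that share most of their genes. It had Krt8 at 1825 CPM and Krt18 at 7506 CPM, beside 10 of 15 Schwann markers. It was the only pre-pubertal cell in which Esr1 and Prlr were both detected. At puberty Prlr was spread widely: 17 cells held 50% of the reads and 52 held 90%.

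Pgr, the progesterone receptor, had 1 read in all pre-pubertal cells together. Pubertal cells had it at 80.9 CPM (interval 78.8 to 83.1) and adult cells at 113.1 CPM (interval 108.3 to 118.0). The log2 ratio to CPM + 5 was 4.10 from pre-puberty to puberty, a value that rests on the constant added because the lower level is 1 read. Pgr was detected in 0 of 116 pre-pubertal cells (3 cells would be 2.59%, and the exact interval reaches 3.13%), then in 33 of 119 (27.7%, 19.9 to 36.7) and, among adult cells, in 17 of 44 (38.6%, 24.4 to 54.5). Among cells with Pgr the median level was 196.3 CPM at puberty and 213.4 CPM in the adult.

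Esr1 was at 5.38 CPM, 52.5 CPM and 191.5 CPM at the 3 stages. Thinned cells had a read of it in 6.03% (2.46 to 12.0), 33.6% (25.2 to 42.9) and 20.5% (9.80 to 35.3) of cases in stage order, so the adult share and the adult level stood on opposite sides of the pubertal ones. The adult level was set by adult cell 28, with 2812 of 3579 reads, and the 3 cells with most reads held 98.3% of them. At puberty 19 cells held 90% of the Esr1 reads. In the cells with Esr1 the median level was 62.5 CPM at puberty and 35.0 CPM in the adult. At pre-puberty the 2 cells with most reads, 97 and 62, had Esr1 at 368.9 CPM and 309.7 CPM and 0 of 10 luminal markers. They had 7 and 0 of 15 basal markers and 9 and 12 of 15 Schwann markers, where the medians of the stage were 2 and 12.

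**Figure D1:**
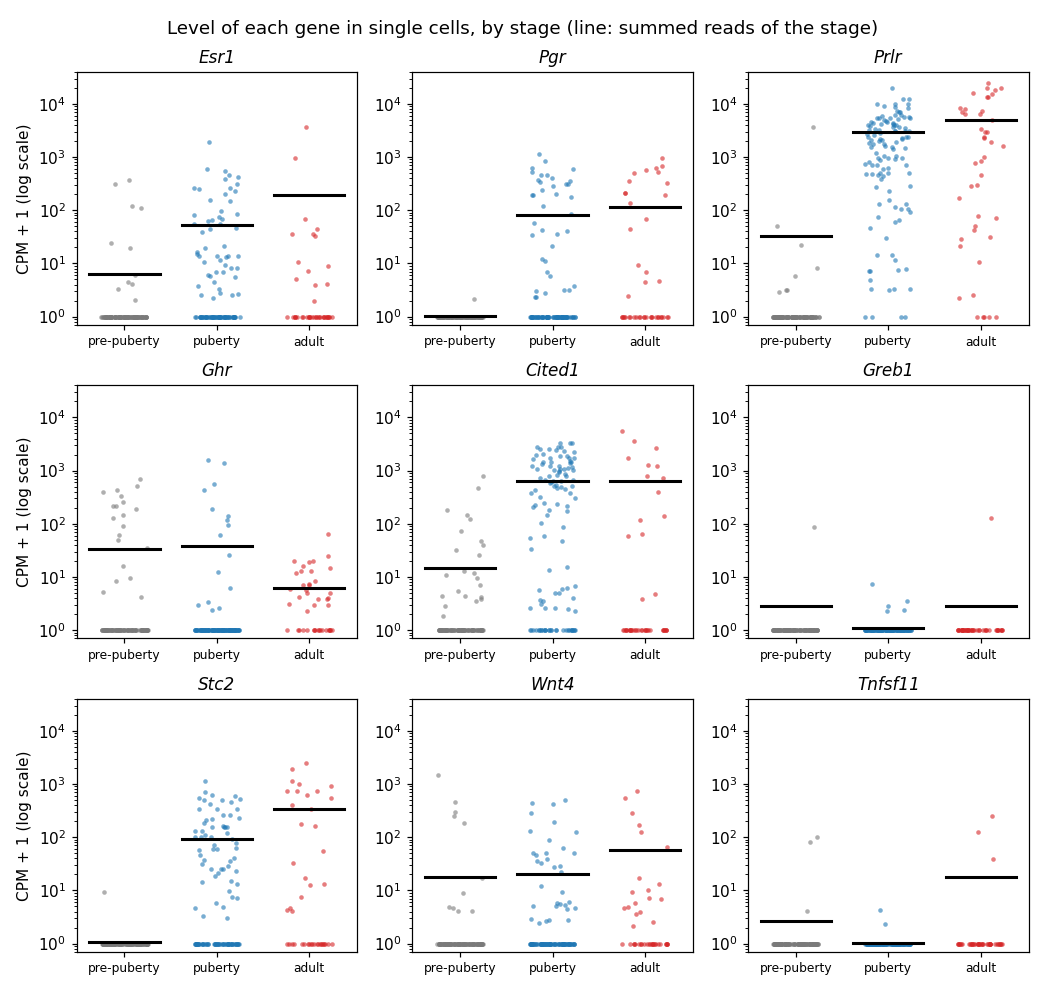
Level of each of the 9 genes in single kept cells (points; 116 pre-pubertal, 119 pubertal and 44 adult cells), as CPM + 1 on a log axis, so that a cell without reads lies at 1; the horizontal line is the level of the summed reads of the stage. Prlr and Cited1 fill most pubertal cells, whereas the lines of adult Esr1 and pre-pubertal Prlr are drawn up by single cells (3707 CPM in adult cell 28 and 3610 CPM in pre-pubertal cell 110).

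Cited1, a transcriptional coregulator that binds estrogen receptor alpha, was at 13.6 CPM, 648.7 CPM and 640.7 CPM. Per length it was the highest of the 9 genes, at 665.3 RPKM (reads per 1000 bases of gene length per 1000000 reads) at puberty and 657.1 RPKM in the adult, which ranked 84 and 111 among all genes analysed. The 2 later levels were close, but the cells differed. Cited1 was detected in 65.5% of the pubertal (56.3 to 74.0) but 31.8% of the adult cells (18.6 to 47.6). At puberty 47 cells held 90% of its reads and the top cell held 4.22%. In the adult 6 cells held 90%, and adult cell 41 held 47.0%, without which the level was 359.6 CPM. The median over cells with Cited1 was 808.4 CPM at puberty and 752.0 CPM in the adult.

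Stc2, which codes for the secreted glycoprotein stanniocalcin 2 and is a known estrogen-responsive gene, had 3 reads in 1 pre-pubertal cell. Pubertal cells together had 91.0 CPM (interval 88.8 to 93.3), and the adult cells 332.0 CPM (interval 323.8 to 340.4). The share of cells with Stc2 was the same at both stages, 45.4% (36.2 to 54.8) and 45.5% (30.4 to 61.1), and the difference lay in the level per positive cell, with a median of 114.6 CPM at puberty and 477.1 CPM in the adult. Stc2 was the only member called higher in the adult than at puberty under all 13 alternatives.

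Greb1, a cofactor of estrogen receptor alpha and one of its best known targets in breast cancer cells, had few reads at any stage. There were 75 reads at pre-puberty, all in cell 21, 5 reads in 5 cells at puberty and 34 reads in the adult, all in cell 14. It reached 10 CPM at no stage. Greb1 did not follow the other 2 target genes at puberty, where Cited1 and Stc2 were each detected in at least 54 cells and Greb1 in 2 thinned cells.

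Of the paracrine genes, Wnt4 was at 16.9 CPM, 18.9 CPM and 56.7 CPM. The pre-pubertal and pubertal levels differed by a log2 ratio of 0.13, but lay in different numbers of cells. The share of cells with Wnt4 was 6.90% before puberty (3.02 to 13.1), then 21.8% (14.8 to 30.4), and 29.5% among adult cells (16.8 to 45.2). Pre-pubertal cell 43 held 49.1% of the reads of its stage, and adult cell 41 held 51.9%. Without the top cells the adult level was 28.8 CPM and the log2 ratio of adult to puberty went from 1.36 to 0.70.

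Tnfsf11 had 3 reads in 2 cells at puberty, and 0 of 119 thinned cells had a read, where 3 cells would be 2.52% and the exact interval reaches 3.05%. It had 68 reads in 3 cells at pre-puberty and 322 reads in 3 cells in the adult, or 17.2 CPM. These adult cells were 23, 28 and 14, with 217, 95 and 10 reads. All 3 had Prlr, and cells 28 and 14 had Pgr at 43.5 CPM and 359.6 CPM, while cell 23 had no Pgr read. They had 5 to 8 of 10 hormone-sensing luminal markers and 1 of 15 basal markers each.

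Ghr, the growth hormone receptor, was the only one of the 9 genes called lower in any comparison. Its levels in stage order were 33.2 CPM (interval 31.4 to 35.0), 37.1 CPM (interval 35.7 to 38.6) and 5.24 CPM (interval 4.26 to 6.39). It was called lower in the adult against both earlier stages under all 13 alternatives. Those that only leave out pre-pubertal cells cannot change the comparison with puberty. The adult cells below the filter went the other way, with 82.6 CPM (57.8 to 114.3) from 36 reads in 7 of 22 cells, and with no filter on cells the log2 ratio of adult to puberty was -1.80 in place of -2.04. Reads were found in 15.5% of pre-pubertal, 10.1% of pubertal and 40.9% of adult thinned cells. The adult reads were thus thinly spread, with a median of 9.60 CPM in the cells that had them and no cell above 40 RPKM. At puberty 5 cells held 90% of the reads, and cells 16 and 131 alone held 33.1% and 28.9%, at 1415 CPM and 1604 CPM.

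Cells with Ghr were compared by their markers. In pre-pubertal cells with Ghr the median was 12 of 15 Schwann markers and 0 of 10 luminal markers, the same as over all cells of that stage. Pubertal cells with Ghr had a median of 7 basal markers against 2 in those without, and adult ones 10 against 5.5. Above 40 RPKM the pubertal medians were 2 and 2, over 5 cells with Ghr and 114 without. Pubertal cell 16 had 9 of 10 luminal progenitor markers and no basal marker, and pubertal cell 131 had 7 basal and 2 luminal markers. The 2 pubertal cells with most Ghr reads thus differed in their markers.

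**Figure D2:**
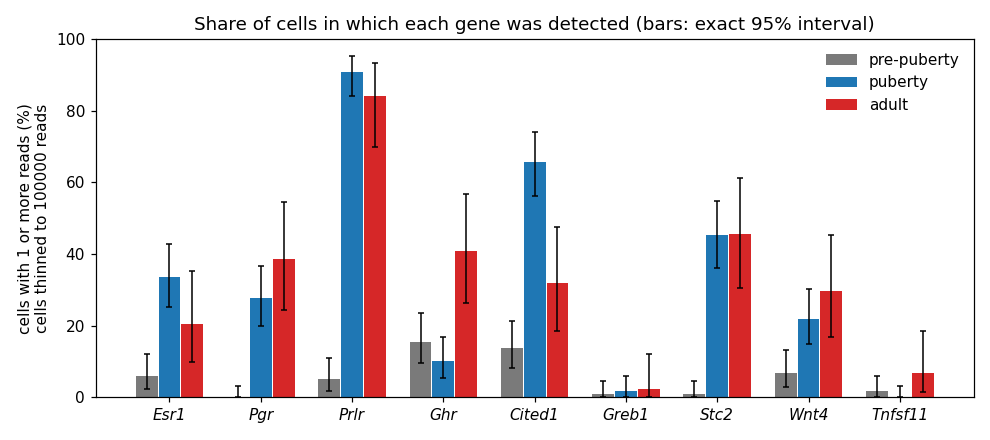
Share of kept cells with 1 or more reads of each gene after thinning every cell to 100000 reads (bars; gray pre-puberty, blue puberty, red adult), with exact 95% binomial intervals. Prlr was detected in 90.8% of pubertal cells, Cited1 in 65.5% and Tnfsf11 in none, and Ghr has its highest share in the adult, at 40.9%.

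Between pre-puberty and adulthood 7 of 8 tested members were higher, against 28.9% of 9751 genes, and 1 (Ghr) was lower, against 31.7%. Between puberty and adulthood 4 of 8 were higher (Esr1, Stc2, Wnt4 and Tnfsf11), against 20.7% of 9462 genes, and 1 (Ghr) was lower, against 28.4%. Esr1, Pgr, Stc2 and Tnfsf11 were under 10 CPM at pre-puberty, so they could not have been called lower in the adult than at that stage. Tnfsf11 was under 10 CPM at puberty too. Ghr was under 10 CPM in the adult and could not have been called higher there. The comparisons share stages and are not independent. Of the 4 calls between puberty and adulthood, those of Esr1, Wnt4 and Tnfsf11 rested on few cells and were each lost under 4 of 13 alternatives. Of the 7 higher calls between pre-puberty and adulthood, that of Tnfsf11 was lost under 4, that of Wnt4 under 2 and that of Esr1 under 1. Leaving out adult cell 28 alone turned the log2 ratio of Esr1 from 1.77 to -0.27, leaving out adult cell 41 took that of Wnt4 to 0.50, and without adult cell 23 that of Tnfsf11 was 1.11 at under 10 CPM at both stages.

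**Figure D3:**
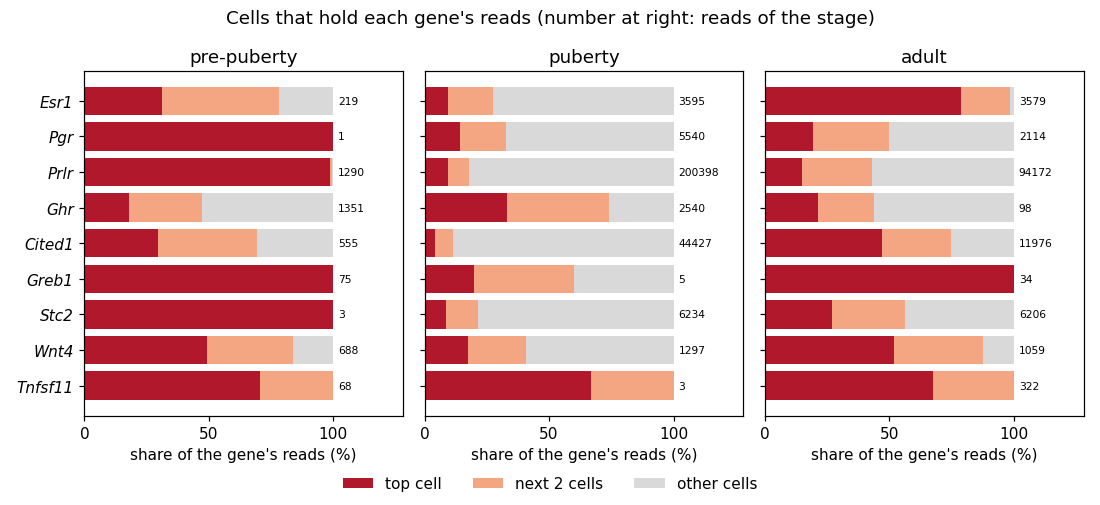
Share of the reads of each gene held by the cell with most reads (dark red), the next 2 cells (light red) and all others (gray), in percent per stage, with the reads of the stage at the right of each bar. At puberty the top cell of Prlr, Cited1 and Stc2 held 9.28%, 4.22% and 8.50% of the reads, whereas the top adult cell held 78.6% for Esr1, 47.0% for Cited1 and 51.9% for Wnt4.

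**Figure D4:**
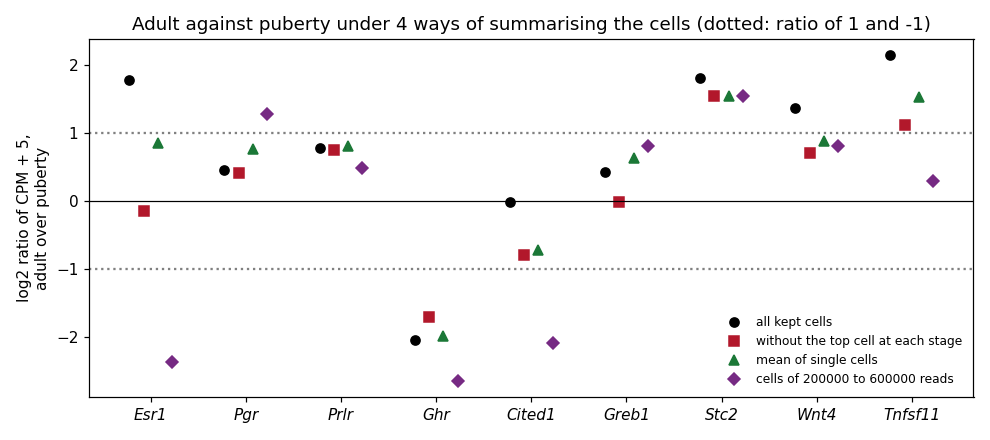
Log2 ratio of CPM + 5 of adult over puberty for each gene with all kept cells (black circles), without the top cell of the gene at each stage (red squares), as the mean of single cells (green triangles) and in cells of 200000 to 600000 reads (purple diamonds); dotted lines mark 1 and -1. Stc2 stays between 1.53 and 1.81 and Ghr at or below -1.71, while Esr1 ranges from 1.77 to -2.37.

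A few adult cells carried many of the reads. Cell 41 was the top cell of Prlr, Cited1 and Wnt4, with 13734 CPM, 5487 CPM and 536.7 CPM, and had 7 hormone-sensing luminal markers and 1 basal marker. Cell 28 had Esr1 at 3707 CPM and Prlr at 18185 CPM, and cell 14 had 7 of the 9 genes, the most of any cell. Cell 52, the top cell of Pgr, was of another kind. It had Pgr at 611.2 CPM, 1 Prlr read, no read of Esr1, Cited1 or Stc2, Krt14 at 3168 CPM and 11 of 15 basal markers, together with 9 of 10 luminal and 7 of 10 luminal progenitor markers.

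Windows of 300 bases around RefSeq transcript starts (250 before and 50 after the start, GRCm38.p6) were searched on both strands for letters that the receptors' pathways are known to read, because 5 of the genes were higher together at puberty. The 9 genes had 16 such windows. The whole estrogen response element, GGTCANNNTGACC, was in 0 of the 16 and in 0.0700% of all 32851 windows. A single arm of it, GGTCA, which the whole element also contains, was in 6 of 16, of Esr1, Cited1, Greb1 and Stc2, against 40.5% of all. The Stat5 motif TTCNNNGAA was in 2 of 16 against 8.30% of all, in windows of Esr1 and Prlr. With 16 windows, shares this close to those of all windows are not read as a result. Greb1, which had few reads, had single arms in 2 windows, as did Cited1. Both Stat5 matches had the same 9 letters, and the 30 bases around them are shown on the strand of the gene with the motif in capitals. The sequence of Cited1, the gene highest per length, shows a single arm of the estrogen element, where the capitals are GGTCA read on the other strand. A match of letters is a description and not a site of binding.
Esr1, chr10:4709960-4709989, plus strand, motif 188 bases before a start: ctggagtttcTTCTAGGAAtgctgattcta
Prlr, chr15:10223786-10223815, plus strand, motif 110 bases before a start: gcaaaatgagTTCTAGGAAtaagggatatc
Cited1, chrX:102252353-102252382, minus strand, single arm 189 bases before a start: ctgggcgagaagTGACCataatcagagacc

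Esr1, Pgr and Prlr were next followed in the same cells. At least 1 of them was found before puberty in 12 of 116 cells (10.3%, 5.46 to 17.4), then in 108 of 119 (90.8%, 84.1 to 95.3), and among adult cells in 39 of 44 (88.6%, 75.4 to 96.2). All 3 together were found in 0, 13 and 6 cells. Prlr was found in most cells of both later stages, and nearly all cells with Esr1 or Pgr had it. All 40 pubertal cells with Esr1 and all 33 with Pgr had Prlr, as did all 9 adult cells with Esr1 and 15 of 17 with Pgr. Prlr was itself found in 86.1% of pubertal cells without Esr1 (76.5 to 92.8), an interval that meets that of cells with Esr1 (91.2 to 100), and Prlr was thus broad in both. Pubertal cells without Pgr had Prlr in 87.2% (78.3 to 93.4), which meets the interval of those with Pgr (89.4 to 100). In the adult Prlr was in 88.2% of cells with Pgr (63.6 to 98.5) and 81.5% of those without (61.9 to 93.7).

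The shares of cells with Pgr had overlapping intervals in cells with and without Esr1 at both later stages. An overlap is not a test, and whether the shares differ was not tested. Pgr was detected in 13 of 40 pubertal cells with Esr1 (32.5%, 18.6 to 49.1) and in 20 of 79 without (25.3%, 16.2 to 36.4), and the intervals overlap. In the adult it was in 6 of 9 cells with Esr1 (66.7%, 29.9 to 92.5) and in 11 of 35 without (31.4%, 16.9 to 49.3), which also overlap. Above 40 RPKM in unthinned cells, 12 pubertal cells had Esr1, 14 had Pgr and 1 had both. In the adult 2 had Esr1, 8 had Pgr and 0 had both, where 3 cells would be 6.82% and the exact interval reaches 8.04%. Of pubertal cells high in Esr1, 8.33% were high in Pgr (0.211 to 38.5), against 12.1% of the others (6.63 to 19.9).

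Stc2 and Cited1 were found more often in pubertal cells with Pgr than in those without. Stc2 was detected in 30 of 33 cells with Pgr (90.9%, 75.7 to 98.1) and in 24 of 86 without (27.9%, 18.8 to 38.6), and Cited1 in 30 of 33 (90.9%, 75.7 to 98.1) and 48 of 86 (55.8%, 44.7 to 66.5). Neither pair of intervals overlaps. With Esr1 the shares were 65.0% against 35.4% for Stc2 (48.3 to 79.4 and 25.0 to 47.0), which do not overlap after thinning, and 82.5% against 57.0% for Cited1 (67.2 to 92.7 and 45.3 to 68.1), which do. Above 40 RPKM the Stc2 shares with and without Esr1 were 33.3% and 27.1% (9.92 to 65.1 and 19.0 to 36.6) and overlapped, while those with and without Pgr were 64.3% and 22.9% (35.1 to 87.2 and 15.2 to 32.1). In the adult Stc2 was in 10 of 17 cells with Pgr and 10 of 27 without, and those intervals overlap. Markers moved with these shares. Pubertal cells with Pgr had a median of 6 hormone-sensing luminal markers and 1 basal marker, against 4 and 3 in those without, and Foxa1 was found in 75.8% against 34.9%, Areg in 97.0% against 60.5% and Krt8 in 100% against 88.4%. The median depth was 624943 reads with Pgr and 541204 without, and after thinning the median number of detected genes was 2967 and 2633.5. The part of markers, depth and detected genes in the difference was not tested.

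**Figure D5:**
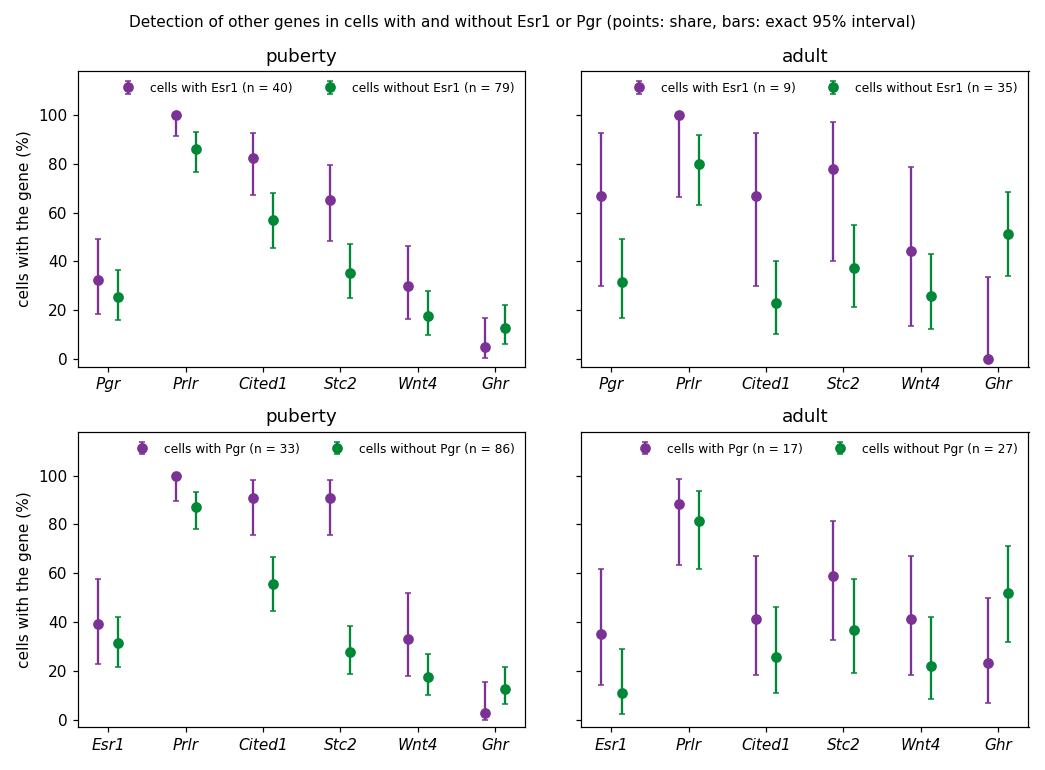
Share of cells with another of the genes among cells with (purple) and without (green) Esr1 (upper row) or Pgr (lower row) at puberty (left) and in the adult (right), after thinning, with exact 95% binomial intervals. Stc2 and Cited1 stand apart with Pgr at puberty (90.9% in cells with Pgr for both, 27.9% and 55.8% in cells without), whereas Pgr lies at 32.5% and 25.3% in cells with and without Esr1.

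The 11 pubertal cells without Prlr had no read of Esr1, Pgr, Cited1, Greb1, Stc2, Wnt4 or Tnfsf11 after thinning, and 1 of them had Ghr. For 0 of 11 cells the exact interval reaches 28.5%. This meets the intervals in cells with Prlr for Esr1 (27.9 to 46.9), Pgr (22.1 to 40.2) and Wnt4 (16.4 to 33.3). It does not meet those for Cited1 (62.8 to 80.4) and Stc2 (40.2 to 59.8). Greb1 and Tnfsf11 were found in only 2 and 0 of all 119 pubertal cells. The 11 cells without Prlr had a median of 10 of 15 basal markers and 3 of 10 luminal markers, against 2 and 8 in cells with Prlr. Foxa1 and Areg were found in none of the 11. The 7 adult cells without Prlr also had a median of 11 basal markers, against 6. All 54 pubertal cells with Stc2, all 26 with Wnt4 and all 78 with Cited1 had Prlr.

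Cells were also compared by their keratins, with classes set at 40 RPKM after the values had been seen. None of Krt14, Krt8 and Krt18 was above 40 RPKM in 97 of 116 pre-pubertal cells, 10 of 119 pubertal cells and 3 of 44 adult cells. Prlr was above 40 RPKM in 64 of 80 pubertal cells with Krt8 or Krt18 only, which are keratins of luminal cells, in 15 of 24 cells with these and the basal keratin Krt14, and in 0 of 5 with Krt14 only. In the adult the counts were 18 of 22, 7 of 14 and 0 of 5. After thinning, Prlr reads were also found in 2 of 5 pubertal and 3 of 5 adult cells with Krt14 only. Its summed level in these cells was 6.85 CPM at puberty and 130.1 CPM in the adult, or 19.6 CPM without adult cell 27, which had 236 reads. Whether these reads came from the cells themselves was not tested. All 14 pubertal cells with Pgr above 40 RPKM had Krt8 or Krt18 only. In the adult the 8 such cells were 4 with these keratins only, 3 with both kinds and 1 with Krt14 only. Of the adult reads, 99.7% of those of Esr1 and 99.6% of those of Cited1 lay in cells with Krt8 or Krt18 only. These are shares of reads, of which adult cell 28 alone held 78.6% for Esr1 and adult cell 41 held 47.0% for Cited1. By thinned cells, Esr1 was found in 7 of 22 cells with these keratins only and in 2 of 14 with both kinds. Cited1 was found in 12 of 22 and 2 of 14. In cells with both kinds of keratin Cited1 was at 528.3 CPM at puberty and 9.30 CPM in the adult, and at 799.8 CPM and 1186 CPM in cells with Krt8 or Krt18 only. These adult values rest on single cells: without the top cell of each class and stage they were 433.8 and 0.21 CPM with both kinds, and 767.7 and 698.0 CPM with Krt8 or Krt18 only, so that the adult was then the lower in both.

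The genes most alike were named for each member found in at least 10 thinned pubertal cells, as Pearson correlations of log2(CPM + 10) over 119 pubertal cells, with the value over 44 adult cells beside it. The cells of a stage are 1 sample, and the values are descriptions. Prlr varied with the luminal keratins Krt18 (0.73 at puberty, 0.60 in the adult) and Krt19 (0.66 and 0.57) and with Wfdc2 (0.65 and 0.71). Cited1 varied with AW112010 (0.66 and 0.77), Wfdc2 (0.65 and 0.64) and Il33 (0.65 and 0.33). Stc2 varied with Areg (0.59 and 0.58), which codes for the epidermal growth factor receptor ligand amphiregulin, with Cxcl15 (0.53 and 0.50) and with Prlr (0.52 and 0.68). For Pgr they were Il33 (0.51 and -0.01), Stc2 (0.49 and 0.35) and Cxcl15 (0.47 and 0.17), and for Esr1 Eya3 (0.44 and -0.11), Ang5 (0.42 and 0.39) and Tspan13 (0.41 and 0.26). Those of Ghr (Epb41l4aos, Tln1 and Lta4h, 0.47 to 0.59) and Wnt4 (Banp, Cdip1 and Gm6023, 0.42 to 0.50) were between -0.15 and 0.11 in the adult. Esr1 and Pgr had a correlation of 0.05 at puberty and 0.12 in the adult.

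The other genes of these pathways were taken by list. Of 10 further hormone receptors 6 reached 10 CPM in the first comparison, and 1 (Pgrmc1) was higher and 4 lower at puberty than at pre-puberty. By their highest stage level the first of them were Oxtr, the oxytocin receptor, at 205.2, 81.5 and 401.7 CPM (96.3, 43.3 and 184.4 CPM without the top cell of each stage), and Pgrmc1, a membrane-associated progesterone-binding protein, at 127.8, 314.4 and 343.0 CPM. Of 7 receptor cofactors 2 were higher, Foxa1 and Gata3, and none lower. Gata3, a luminal transcription factor, was at 42.5, 560.9 and 862.4 CPM, and Ncor1, a corepressor, was at 227.2, 255.7 and 330.8 CPM. Without the top cells Ncor1 was at 205.9, 239.2 and 158.1 CPM, and the adult was then lowest.

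Of 6 genes of Jak-Stat signaling 2 were higher at puberty (Socs2 and Cish) and 1 was lower (Socs3). Cish, a feedback inhibitor induced by Stat5, was at 37.6, 124.5 and 184.0 CPM, and Jak2 at 35.0, 66.1 and 177.2 CPM. Without the top cells the adult level was 112.6 CPM for Cish, near the 111.7 CPM of puberty, and 86.1 CPM for Jak2. Of 8 other estrogen targets 2 were higher (Areg and Igfbp4) and 1 was lower (Myc). Areg had no read at pre-puberty and stood at 716.0 CPM and 547.7 CPM at the later stages, and Ccnd1, which codes for cyclin D1, was at 467.5, 436.4 and 417.8 CPM. Of 8 other paracrine genes 2 were higher and 2 lower at puberty. Lgr4, a receptor for R-spondins, was at 999.9, 1035 and 149.3 CPM. Tnfrsf11a, which codes for the receptor of Rankl, was at 3.27, 56.5 and 7.44 CPM (33.1 and 0.65 CPM at the later stages without the top cells), and its ligand Tnfsf11 had 3 reads at puberty. All 3 tested milk protein genes of the 5 prolactin-responsive genes were higher at puberty, and of the 4 tested between puberty and adulthood 3 were higher in the adult. All 5654 pubertal Csn2 reads were in 1 cell. Csn1s1 had no read at pre-puberty and 250.1 and 4325 CPM later, or 98.9 and 2728 CPM without the top cells. Csn3 had 43.1, 2667 and 3019 CPM, or 5.37, 2079.7 and 2266 CPM without them.

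The median log2 ratio of puberty to pre-puberty over all genes of these lists was -0.04 for the hormone receptors, 0.59 for the cofactors, 0.10 for Jak-Stat signaling, -0.01 for the estrogen targets, 0.02 for the paracrine genes and 4.11 for the prolactin-responsive genes, beside 0.12 over all genes tested. In the adult against puberty the receptors had 2 genes higher and 0 lower of 6 tested, the cofactors 0 and 1 of 7, Jak-Stat signaling 2 and 0 of 5, the estrogen targets 2 and 0 of 6, and the paracrine genes 3 and 3 of 6, against 20.7% higher and 28.4% lower over all genes tested. With so few genes per list nothing is read from these shares. The paracrine genes higher in the adult were Rspo1, Calca and Igf1, and those lower were Tnfrsf11a, Adamts18 and Lgr4. Rspo1, Calca and Igf1 were each found in 6.82% of adult cells, at 45.8, 10.2 and 53.3 CPM. Without their top adult cells they were at 15.4, 4.93 and 21.4 CPM, and Calca was then under 10 CPM. Tnfrsf11a, Adamts18 and Lgr4 stayed lower in the adult without the top cells.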

How the data were processed

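Single-cell RNA-seq counts of 346 cells at 3 stages were used. Per cell and gene, the deposited counts give unnormalized read pairs as whole numbers. The authors aligned reads to mm10 with Subread and counted them over RefSeq genes with featureCounts, using the annotation it ships with. The submitters' processing notes give Subread 1.4.6. The deposited gene length (another value, in bases) was used for RPKM only. The protocol has no molecular identifiers and does not mark strand, and amplified copies count separately. Prlr and Ghr each overlap 1 further RefSeq gene, neither of which is in the files.

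Symbols came from RefSeq GRCm38.p6 by Entrez number (25275 of 27179 genes). The 1904 unmatched, 15 mitochondrial and 121 ribosomal protein genes were removed. Total reads per kept cell ranged from 109387 to 1189103. The calls, thinning and intervals were made with Python 3.11.15, numpy and scipy as given beside each value, and were tested on simulated data. No cells held identical counts. A series-wide table with the same counts was not used.

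Labels gave each cell its stage. Each stage was 1 sample, so no test was run. The members and lists were chosen with earlier results of these data known. Named genes were the 9 members, the 2 genes of largest CPM of each pathway list, with the genes past the call, and the 3 genes most like each member, among genes found in at least 10% of pubertal cells. Cells named by number, keratin classes and 4 alternatives that leave out single cells were chosen after the values were seen. The other alternatives changed the constant added, the weight of cells, the filters, the genes in the total, the depth window, the detection rule or the random seed.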

Additional observations from a re-analysis of the deposited data

Results flagged for a closer look

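The cells below the depth filter were used in no comparison, and they carried reads of the 9 genes above the limit that a count of 0 allows. Their summed level was 93.9 CPM over 28 pre-pubertal cells, 5953 CPM over 17 pubertal cells and 4724 CPM over 22 adult cells. Prlr made up most of it at the later stages, with 4035 reads at puberty, where all 17 cells had some, and 1280 reads in 17 of 22 adult cells. Some other genes had most of their reads there in single cells: adult cell 60 had 621 of 637 Esr1 reads (97.5%), pubertal cell 6 had 213 of 214 Pgr reads and pubertal cell 23 had 79 of 80 Esr1 reads. Others were spread wider, as adult Ghr, with 36 reads in 7 cells (82.6 CPM, against 5.24 CPM in the kept adult cells), and adult Stc2, with 33 reads in 9 cells. At pre-puberty Cited1 was the highest, at 38 reads in 5 cells.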

How the results depend on the processing

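The calls of the 5 genes higher at puberty than at pre-puberty held under each alternative tried, as did those of Ghr and Stc2. Dropping the minimum CPM cannot lose a call. An alternative that only leaves out cells of a stage outside a comparison cannot change it, and such unchanged ratios are counted below as kept. Of 18 called log2 ratios under 12 alternatives each, 212 of 216 values kept their direction. Those that turned were Esr1 in the adult against puberty, at -2.37 in cells of 200000 to 600000 reads, -0.15 without the top cell of each gene and -0.27 without adult cell 28, and Tnfsf11 in the adult against pre-puberty, at -0.26 in the same depth window. The depth window leaves out adult cell 28, which had 758595 reads. The number of members higher in the adult than at puberty went from 4 to 1 with the mean of single cells, 2 in the depth window and 1 without top cells, and the number lower from 1 to 3 in the window.

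Shares depend on what counts as detection. For at least 1 of Esr1, Pgr and Prlr, the pre-pubertal share was 3.45% at 5 reads or more and 2.59% above 40 RPKM, the pubertal one 96.6% with any unthinned read and 68.1% above 40 RPKM, and the adult one 61.4% above 40 RPKM. For Esr1 and Pgr together the pubertal share was 10.9%, and 4.20% at 5 reads, 0.840% above 40 RPKM and 4.84% in the depth window, and the adult share was 13.6%, and 2.27% at 5 reads and 0% above 40 RPKM. For Esr1 and Prlr the pubertal share of 33.6% became 17.6%, 44.5% with any read and 9.24% above 40 RPKM, and the adult share of 20.5% became 9.09% and 4.55%. For Pgr and Prlr the pubertal share of 27.7% became 18.5% at 5 reads, 11.8% above 40 RPKM and 19.4% in the depth window, and the adult share of 34.1% became 13.6% above 40 RPKM. Another random draw of reads moved none of the 9 shares out of its interval. No paired analysis was possible because cell numbers are only names and each stage is 1 sample. For a gene found in none of the 44 adult cells the exact interval reaches 8.04%. Differences between mice cannot be told apart from those between stages.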
